A study of Rattus norvegicus with 12 samples.

Results

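Empagliflozin at 200 µM was compared with glucose deprivation alone in 6 of 12 RNA-seq libraries. The cells were H9c2(2-1), a wild-type line of rat myoblasts taken from the embryonic heart. The 3 GD libraries come from cells deprived of glucose for 36 h, and the 3 libraries with 200 µM come from cells deprived for the same 36 h in the presence of the drug. They were chosen by their labels, not by their values. The remaining libraries are 3 of cells deprived for 36 h with 100 µM empagliflozin and 3 of control cells in high-glucose DMEM with 10% serum, and their levels are given beside some results. The labels name no solvent for the GD cells, so a drug effect and a solvent effect cannot be told apart, and they state no serum for the deprived groups. Whether the 3 libraries of each group were grown as separate cultures is not stated, and the p-values may then reflect technical spread alone.

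Empagliflozin inhibits SGLT2, the kidney's sodium-glucose cotransporter, which is the product of Slc5a2. A cell without glucose runs short of energy and also of the sugars that are attached to proteins in the endoplasmic reticulum (ER). Misfolded proteins in the ER set off the unfolded protein response, in which the factors ATF6 and XBP1 raise the genes of ER chaperones and PERK raises the translation of ATF4, which in turn induces Ddit3. The factor NF-kappaB drives chemokine and cytokine genes, while SRF and YAP drive genes of the actin cytoskeleton and of secreted matrix proteins.

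Values are given as TPM, relative transcript abundances scaled to a common total, which take gene length into account but keep no record of read numbers, so the depth is unknown and a value of 0 means listed at 0. A log2 fold change is the difference of mean log2(TPM + 1) between the libraries with 200 µM and the GD libraries, a scale on which changes of low genes come out too small. Means are given ± SD over 3 libraries. Of the 35966 genes of the table, 12314 had at least 1 TPM in at least 3 of the 12 libraries and were tested, and 100 of them passed that filter only through the libraries with 200 µM. A gene is said to rise or fall where limma, adjusting over all genes tested, gave a p under 0.05. In bulk RNA, fewer cells of a type and less RNA per cell cannot be told apart.

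With 200 µM, 3944 genes (32%) were higher and 1406 (11.4%) lower than in GD, and 590 rose and 138 fell by more than 2-fold. All 3 libraries with 200 µM lay above all 3 GD libraries for 37.4% of genes and below them for 12.6%. The median log2 fold change of all genes was 0.14. After median-of-ratios scaling, which sets the typical gene near no change, the median was -0.01, 22.4% of genes were higher and 24.4% lower, and the share of calls that were upward went from 73.7% to 47.8%. No gene was called in opposite directions by the 2 scalings. List medians are therefore read against 0.14, and counts of genes in a list against these shares of all genes. Medians of the lists of stress regulators, amino acid synthesis, N-glycan assembly, glycolysis, citric acid cycle, autophagy, DNA replication, mitosis, p53-type targets, growth factors and immediate-early genes were slightly above 0 and turned slightly negative with this scaling.

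Ribosomal protein and ferritin genes held 39.0%, 37.5% and 41.4% of all TPM in GD and 36.3%, 35.7% and 37.4% with 200 µM. The groups did not overlap, with a difference of -2.85 percentage points (exact permutation p = 0.1, two-sided, the smallest that 3 against 3 libraries allow). For ribosomal protein genes alone the groups overlapped (-2.13, exact permutation p = 0.2). For the 2 ferritin genes together they did not (-0.719, p = 0.1 in the same exact test). GD replicate 3 stood apart with the fewest genes at 1 TPM or more (10551, against up to 10951 in the other GD libraries). Without it, 3323 genes were higher and 2037 lower. Correlations across genes (log2 scale; genes are no independent replicates) were 0.963 to 0.972 between GD libraries and those with 200 µM and 0.990 to 0.994 among GD libraries.

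The label calls the cells myocardial, but most cardiac markers were at or near 0. Of 10 cardiac markers, Nppa, Nppb, Myh6, Myh7, Tnni3, Actc1, Nkx2-5 and Pln stayed under 0.5 TPM in all 6 libraries, and Tnnt2 and Gata4 were detected. Other genes of the cardiac list were detected too, among them Hand2 (48.3 ± 2.41 TPM in GD), Mef2a (16.2 ± 3.48 TPM) and Tnnc1 (10.5 ± 1.6 TPM). The endothelial markers Pecam1, Cdh5, Kdr, Tek and Vwf stayed at or under 0.07 TPM. Flt1, a further gene of the endothelial list, was detected (3.19 ± 1.22 TPM in GD, 6.21 ± 1.46 TPM with 200 µM). The leukocyte markers Ptprc, Cd3e and Cd79a were listed at 0. The summed level of the 6 fibroblast markers, almost all of it Col1a1, was 414.2 to 756.5 TPM in GD and 1279.8 to 1558.3 TPM with 200 µM, while Tcf21 was listed at 0. The 7 skeletal muscle markers summed to 27.2 to 29.9 TPM in GD and 28.1 to 37.6 TPM with 200 µM, and the 5 leukocyte markers to 0.31 to 0.77 TPM and 0.78 to 2.2 TPM, most of it Cd68. The part of these markers in the results below was not tested.

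**Figure D1:**
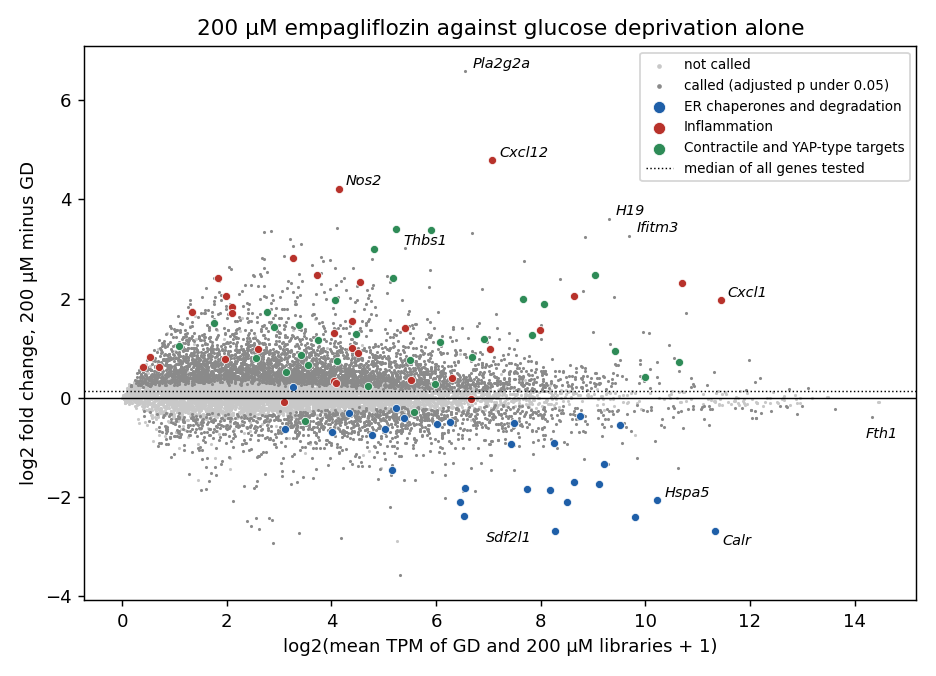
Each point is 1 of the 12314 tested genes, with log2(mean TPM + 1) over the 6 libraries on the x axis and the log2 fold change of 200 µM minus GD on the y axis. The 29 genes of ER chaperones and degradation (blue) lie mostly below 0, and the 31 inflammation genes (red) and 32 contractile and YAP-type targets (green) mostly above the median of all genes, 0.14 (dotted, or -0.01 after median-of-ratios scaling).

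The steepest rises included genes of secreted and membrane proteins and a non-coding RNA. Pla2g2a, which encodes a secreted phospholipase A2, was at 1.22, 0.91 and 0.73 TPM in GD and 176, 184 and 197 TPM with 200 µM (log2 fold change 6.58, SE 0.35, adjusted p = 5.38e-08). No GD library came near those with the drug. Its mean was 11.2 ± 8.19 TPM at 100 µM and 0.99 ± 0.607 TPM in control cells. H19, an imprinted long non-coding RNA, was at 87.5, 107 and 86.2 TPM in GD and 1384, 954 and 1157 TPM with 200 µM (log2 fold change 3.61, SE 0.14, adjusted p = 3.69e-09). Ifitm3, which encodes an antiviral membrane protein, rose from 153 ± 16.6 to 1495 ± 314 TPM (3.26). C1s, a complement protease gene, rose from 17.8 ± 2.41 to 186 ± 3.39 TPM (3.33). Tgm2, which encodes the crosslinking enzyme transglutaminase 2, rose by 3.42 on the log2 scale, the carbonic anhydrase gene Car3 by 3.23, the protease inhibitor gene Slpi by 3.35 and the asialoglycoprotein receptor gene Asgr1 by 3.34. Car3 spread widely among the libraries with 200 µM, at 838 ± 426 TPM. S100a4, a calcium-binding protein gene, rose from 811 ± 15.6 to 2687 ± 439 TPM (1.71), and Tmsb4x, which encodes the actin-binding peptide thymosin beta 4, from 2978 ± 185 to 5071 ± 354 TPM (0.77).

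The steepest falls were divided between ER chaperones and genes of other kinds. Among the others were the phosphatase gene Ppef1 (from 12.1 ± 1.45 to 0.75 ± 0.332 TPM, -2.91), the placental gene Plac1 (from 30.7 ± 3.51 to 3.55 ± 1.08 TPM, -2.82) and the actin-binding protein gene Avil (-2.65). Mlana (from 16.9 ± 3.12 to 1.9 ± 1.42 TPM, -2.72) and Pmel (-2.08), which encode melanosome proteins, fell, as did Mcoln3, which encodes a lysosomal cation channel (from 56.1 ± 9 to 11.5 ± 3.04 TPM, -2.21). The myosin gene Myo7a (-2.42) and the germ-cell factor gene Sohlh1 (-2.46) fell too. In TPM, one of the largest losses was that of Gas5, a non-coding host gene of small nucleolar RNAs, at 2473, 2212 and 2227 TPM in GD and 819.8, 849 and 944 TPM with 200 µM (log2 fold change -1.40, SE 0.08, adjusted p = 9.64e-08). Its groups lay far apart.

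Chaperones of the ER had the lowest median of the 45 lists. Of 29 tested genes of ER chaperones and degradation, 25 fell and none rose, with a median log2 fold change of -0.94 against 0.14 over all genes (28 lower after median-of-ratios scaling, and 28 without GD replicate 3). Derl3, the other list member, never passed 0.17 TPM in the 6 libraries. Calr, which encodes the lectin chaperone calreticulin, was at 4558, 4848 and 3925 TPM in GD and 565, 908 and 646 TPM with 200 µM (log2 fold change -2.68, SE 0.13, adjusted p = 3.12e-08). Hspa5, which encodes BiP, the main HSP70-type chaperone of the ER, was at 2037, 2199 and 1509 TPM in GD and 317, 642 and 451 TPM with 200 µM (log2 fold change -2.07, SE 0.19, adjusted p = 4.02e-06). Hsp90b1, which encodes GRP94, was at 1647, 1708 and 1131 TPM in GD and 248, 318 and 276 TPM with 200 µM (log2 fold change -2.39, SE 0.13, adjusted p = 5.41e-08). For all of these genes the groups were separate, although GD replicate 3 was the lowest GD library and replicate 2 the highest of the libraries with 200 µM. Sdf2l1, a partner of BiP, was at 506, 531 and 557 TPM in GD and 57.2, 109 and 86.1 TPM with 200 µM (log2 fold change -2.69, SE 0.16, adjusted p = 1.15e-07). Its libraries with 200 µM were near the control mean of 72.3 ± 3.64 TPM. Those of Calr lay below the control mean of that gene, 1183 ± 48.5 TPM.

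The BiP cochaperone gene Dnajc3 (-2.38), the disulphide isomerase genes Pdia4 (-2.10) and Pdia6 (-1.69), Creld2 (-2.09), the nucleotide exchange factor gene Hyou1 (-1.82) and Manf (-1.73), a secreted ER stress protein, fell as well. Genes of the sensors fell less, with Atf6 from 38.5 ± 9.84 to 24.3 ± 5.54 TPM (-0.63) and Ern1, which encodes IRE1, from 9.58 ± 2.31 to 5.78 ± 1.08 TPM (-0.63), and in both the groups overlapped in 1 pair of libraries. Without 200 µM replicate 1, Atf6 was no longer called (-0.47). Xbp1 fell from 75.6 ± 5.06 to 52.5 ± 6.62 TPM (-0.52), as did Herpud1 (-0.92) and Edem1 (-0.74), which serve ER-associated degradation. The 4 genes that did not pass were Sel1l (-0.41), Syvn1 (-0.31), Ssr1 (-0.20) and Hspa13 (0.21), of which all but Hspa13 were called lower after that scaling and without GD replicate 3 (-0.66, -0.41 and -0.36), and Sel1l and Syvn1 also without 200 µM replicate 2 (-0.52 and -0.46). Canx, which encodes the membrane-bound partner of calreticulin, fell from 228 ± 37.9 to 117 ± 3.86 TPM (-0.94). Its control mean was 147 ± 8.58 TPM.

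The ER stress element, which reads CCAAT, then 9 bases of any kind, then CCACG, is the promoter sequence that ATF6 binds together with NF-Y. It was searched on both strands from 250 bases before to 50 bases after each gene start in RefSeq promoters (build GRCr8), with letters chosen after the expression values were seen. It occurred in 7 of the 23 ER genes with a promoter in that set (30.4%) and in 21 of all 27457 promoters (0.0765%). The stretches are shown 5′ to 3′ on the strand of the gene, with the element in capitals. They were picked for holding these letters, so their likeness is no result. All 7 genes fell with 200 µM, as did 25 of the 29 tested genes of the list.
Hspa5, chr3:38452953-38453011, plus strand: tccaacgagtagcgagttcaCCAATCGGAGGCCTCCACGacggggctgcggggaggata
Hsp90b1, chr7:23012327-23012489, minus strand: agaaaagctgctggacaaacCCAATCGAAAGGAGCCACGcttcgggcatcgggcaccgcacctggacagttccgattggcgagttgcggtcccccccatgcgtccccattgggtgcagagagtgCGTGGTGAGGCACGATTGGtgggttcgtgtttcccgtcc
Calr, chr19:40213117-40213173, plus strand: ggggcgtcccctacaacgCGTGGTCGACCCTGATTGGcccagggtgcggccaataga
Canx, chr10:35158049-35158107, minus strand: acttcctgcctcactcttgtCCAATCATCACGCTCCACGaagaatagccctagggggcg
Dnajc3, chr15:102432514-102432572, plus strand: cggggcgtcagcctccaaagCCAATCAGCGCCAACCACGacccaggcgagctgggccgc
Creld2, chr7:121789219-121789277, plus strand: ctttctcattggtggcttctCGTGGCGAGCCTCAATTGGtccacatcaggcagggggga
Xbp1, chr14:84604538-84604596, plus strand: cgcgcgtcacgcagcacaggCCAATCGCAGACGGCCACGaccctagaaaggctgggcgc
The Hsp90b1 promoter held 2 copies, and in the second of these, in Calr and in Creld2 the element was read on the opposite strand. It lay 43 bases before the start of Hspa5 and 232 bases before that of Calr. A match describes these letters and does not show that a factor binds them.

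Regulators of the stress response moved both ways, with 6 of 20 lower and 5 higher (8 and 5 after median-of-ratios scaling). Over all genes 11.4% were lower and 32% higher, so falls were more frequent in this list than over all genes and rises were not. Ddit3, which encodes the death-promoting factor CHOP, was at 1344, 1348 and 1119 TPM in GD and 489.8, 668 and 501 TPM with 200 µM (log2 fold change -1.21, SE 0.11, adjusted p = 2.88e-06). The groups were separate, and the libraries with 200 µM remained above the control mean of 61.9 ± 0.415 TPM. Atf3, a factor gene that ATF4 induces and that the table lists at 2 loci, fell from 62.5 ± 2.19 to 19.1 ± 2.61 TPM (-1.66) at the locus given here. Gdf15, a secreted stress cytokine gene (-1.77), Ppp1r15a, whose product reverses the translation block (-0.83), and Trib3 (-0.58) fell too. Atf4 itself was at 812, 849 and 782 TPM in GD and 837, 973 and 878 TPM with 200 µM, and these overlapped (0.14, adjusted p = 0.0758, and -0.06 after that scaling), although it was called higher without 200 µM replicate 1 (0.18). Ddit4, an inhibitor of mTORC1, rose from 29 ± 2.76 to 86.4 ± 12.7 TPM (1.54), and the factor genes Cebpb (0.85) and Atf5 (0.70) rose.

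Of 15 amino acid synthesis genes 5 rose and none fell, led by the asparagine synthetase gene Asns (from 36.9 ± 3.47 to 59.7 ± 6.09 TPM, 0.68), but median-of-ratios scaling left 3 higher and made 4 lower, and without GD replicate 3 or without 200 µM replicate 2 the number risen was 3. Over all genes 32% rose and 11.4% fell, so the 5 risen are near that share. Of 12 amino acid transporter genes 2 fell, Slc3a2, the heavy chain of several exchangers (from 1496 ± 129 to 826 ± 176 TPM, -0.87), and the glycine transporter gene Slc6a9 (-0.91), or 6 without GD replicate 3. Of 20 cytosolic tRNA synthetase genes 7 fell and 2 rose (11 and none after that scaling, and 4 fallen without 200 µM replicate 1), with Wars at -0.87. The ATF4-type element TGATGNAA occurred in 4 of 17 promoters of stress regulators (23.5%), those of Trib3, Nupr1, Chac1 and Jdp2, in 2 of 12 of amino acid synthesis (16.7%) and in 3.82% of all promoters. Of these 4 stress regulators, Trib3 fell, Chac1 rose (0.48), and Nupr1 (0.08) and Jdp2 (0.29, or 0.40 and called without 200 µM replicate 3) did not pass.

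Genes that build and attach N-glycans, the sugar chains of ER proteins, moved both ways. Of 30 tested, 8 fell and 8 rose, with 11 and 2 after median-of-ratios scaling. The number risen was 3 to 5 without GD replicate 1 or 3 or without 200 µM replicate 1 or 2. Beside 11.4% fallen and 32% risen over all genes, falls were more frequent in this list and rises were not. Of the 8 that fell, 6 encode subunits of the oligosaccharyltransferase, which moves the chain onto the protein. Its catalytic subunit genes are Stt3b (from 49.7 ± 9.12 to 22.3 ± 2.01 TPM, -1.11) and Stt3a (-0.40), and Rpn1 (from 424 ± 23.1 to 211 ± 14.3 TPM), Rpn2 (-0.65), Ostc (-0.92) and Ddost (-0.54) encode others. Further subunit genes rose, Tusc3 by 0.36, and Ost4 by 0.30, which was not called after that scaling (0.10). In the hexosamine pathway, which makes the sugar donor for N-glycans and O-GlcNAc, 4 of 10 fell and 3 rose (5 and 2 after that scaling). Uap1, which makes that donor, fell by 0.71, and Mgea5, which encodes the enzyme that removes O-GlcNAc, rose from 3.63 ± 0.354 to 7.8 ± 0.909 TPM (0.92).

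Inflammatory genes rose as a group. Of 31 tested, 27 rose and none fell, with a median of 1.36 (24 higher after median-of-ratios scaling and 27 without GD replicate 3). Cxcl11, Ccl20 and Tnf, which are among the 27, passed the filter only through the libraries with 200 µM, so their rises are no support. A further 7 list members were not tested, the highest of them Ccl5 at up to 1.24 TPM. Among chemokine genes, Cxcl12, which encodes a ligand that retains stem cells and lymphocytes, was at 8.1, 9 and 8.23 TPM in GD and 286, 233 and 260.5 TPM with 200 µM (log2 fold change 4.78, SE 0.12, adjusted p = 7.82e-11). Cxcl1, which encodes a neutrophil attractant, was at 979, 963 and 1469 TPM in GD and 3925, 3909.5 and 5408 TPM with 200 µM (log2 fold change 1.97, SE 0.26, adjusted p = 5.15e-05). Ccl2, which encodes a monocyte attractant, was at 535, 459 and 666 TPM in GD and 2785, 2171 and 3374 TPM with 200 µM (log2 fold change 2.32, SE 0.20, adjusted p = 1.59e-06). In each of the 3 the libraries with 200 µM lay above all GD libraries. Cxcl12 was at 539 ± 9.69 TPM in control cells, and Cxcl1 at 44.8 ± 10.3 TPM.

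Of the inducible enzymes, Nos2, which encodes inducible nitric oxide synthase, was at 0.92, 0.66 and 0.71 TPM in GD and 28.4, 25.7 and 43.6 TPM with 200 µM (log2 fold change 4.22, SE 0.27, adjusted p = 1.58e-07), and Ptgs2, which encodes cyclooxygenase 2, rose from 1.4 ± 0.57 to 15.9 ± 3.99 TPM (2.82). Sod2, the mitochondrial superoxide dismutase gene and a known NF-kappaB target, was at 106, 85.7 and 121 TPM in GD and 450.2, 549 and 662 TPM with 200 µM (log2 fold change 2.39, SE 0.26, adjusted p = 1.32e-05). All groups were separate. The cytokine gene Tnf (from 0.11 ± 0.11 to 4.97 ± 1.23 TPM, 2.41) was tested only through the libraries with 200 µM, where it is high, so its rise is no support. Il6, another cytokine gene, rose (from 9.55 ± 0.34 to 30.3 ± 4.15 TPM, 1.56), as did the adhesion genes Vcam1 (2.34) and Icam1 (from 141 ± 10.2 to 366 ± 53.5 TPM, 1.36). The inhibitors that NF-kappaB itself induces rose with them, Nfkbia from 87.6 ± 18.8 to 172 ± 24.5 TPM (0.98) and Tnfaip3 (0.98), and so did the subunit genes Nfkb1 (0.90) and Nfkb2 (0.39). Birc3 (0.30), Relb (0.35), Csf1 (-0.03) and Cxcl16 (-0.08) did not pass. The leukocyte markers Ptprc, Cd3e and Cd79a were at 0 in these libraries, and Lyz2 stayed at or under 0.2 TPM. Cd68 was called higher (0.63), but was tested only through the libraries with 200 µM. The part of leukocytes in these rises was not tested.

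A kappaB-type element, GGGA, then any base, then TTTCC, was searched in the same way, again with letters chosen after the values were seen. It occurred in 7 of 25 promoters of the inflammation list (28.0%), those of Cxcl1, Il6, Tnfaip3, Nfkb1, Nfkb2, Nfkbia and Nfkbiz, and in 102 of 27457 promoters (0.371%). All 7 genes rose with 200 µM, as did 27 of the 31 tested genes of the list. However, Nfkb2 was not called after median-of-ratios scaling, with ribosomal protein and ferritin genes left out (0.33), without GD replicate 1 (0.25) or without 200 µM replicate 3 (0.34). The 4 stretches that end before the gene start are shown to let the elements be compared.
Cxcl1, chr14:17479376-17479425, minus strand: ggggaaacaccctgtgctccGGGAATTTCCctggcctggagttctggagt
Il6, chr4:5894614-5894663, minus strand: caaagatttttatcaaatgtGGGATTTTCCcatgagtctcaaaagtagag
Tnfaip3, chr1:15544017-15544066, minus strand: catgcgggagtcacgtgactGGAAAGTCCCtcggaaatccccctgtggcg
Nfkbia, chr6:78597074-78597123, minus strand: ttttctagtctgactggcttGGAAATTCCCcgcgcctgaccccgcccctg
In Tnfaip3 and Nfkbia the element was read on the opposite strand. It lay 84 bases before the start of Cxcl1 and 31 bases before that of Nfkbia.

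Of 21 interferon-stimulated genes 15 rose and 1 fell, with a median of 0.87 (13 and 3 after median-of-ratios scaling), and Ifit3 and Ifih1 were tested only through the libraries with 200 µM. The rise of Ifit3, which is among the 15, is therefore no support. Isg15, a ubiquitin-like modifier gene, rose from 6.55 ± 0.787 to 36.2 ± 11.6 TPM (2.26), the factor gene Irf7 from 9.99 ± 0.705 to 41.9 ± 8.41 TPM (1.95) and the antiviral gene Ifit1 from 1.39 ± 0.119 to 10.1 ± 6.21 TPM (2.04), the last with a wide spread at 200 µM. The gene that fell was Psmb8, an immunoproteasome subunit (from 2.5 ± 0.566 to 1.18 ± 0.578 TPM, -0.70). Other parts of the immunoproteasome rose, Psmb10 from 41.3 ± 8.42 to 192 ± 41.9 TPM (2.19), Psmb9 by 1.35, and the activator genes Psme1 by 1.24 and Psme2 by 1.39. Over the whole proteasome list of 43 genes, 25 rose and 3 fell around a median of 0.25 (12 and 7 after that scaling).

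**Figure D2:**
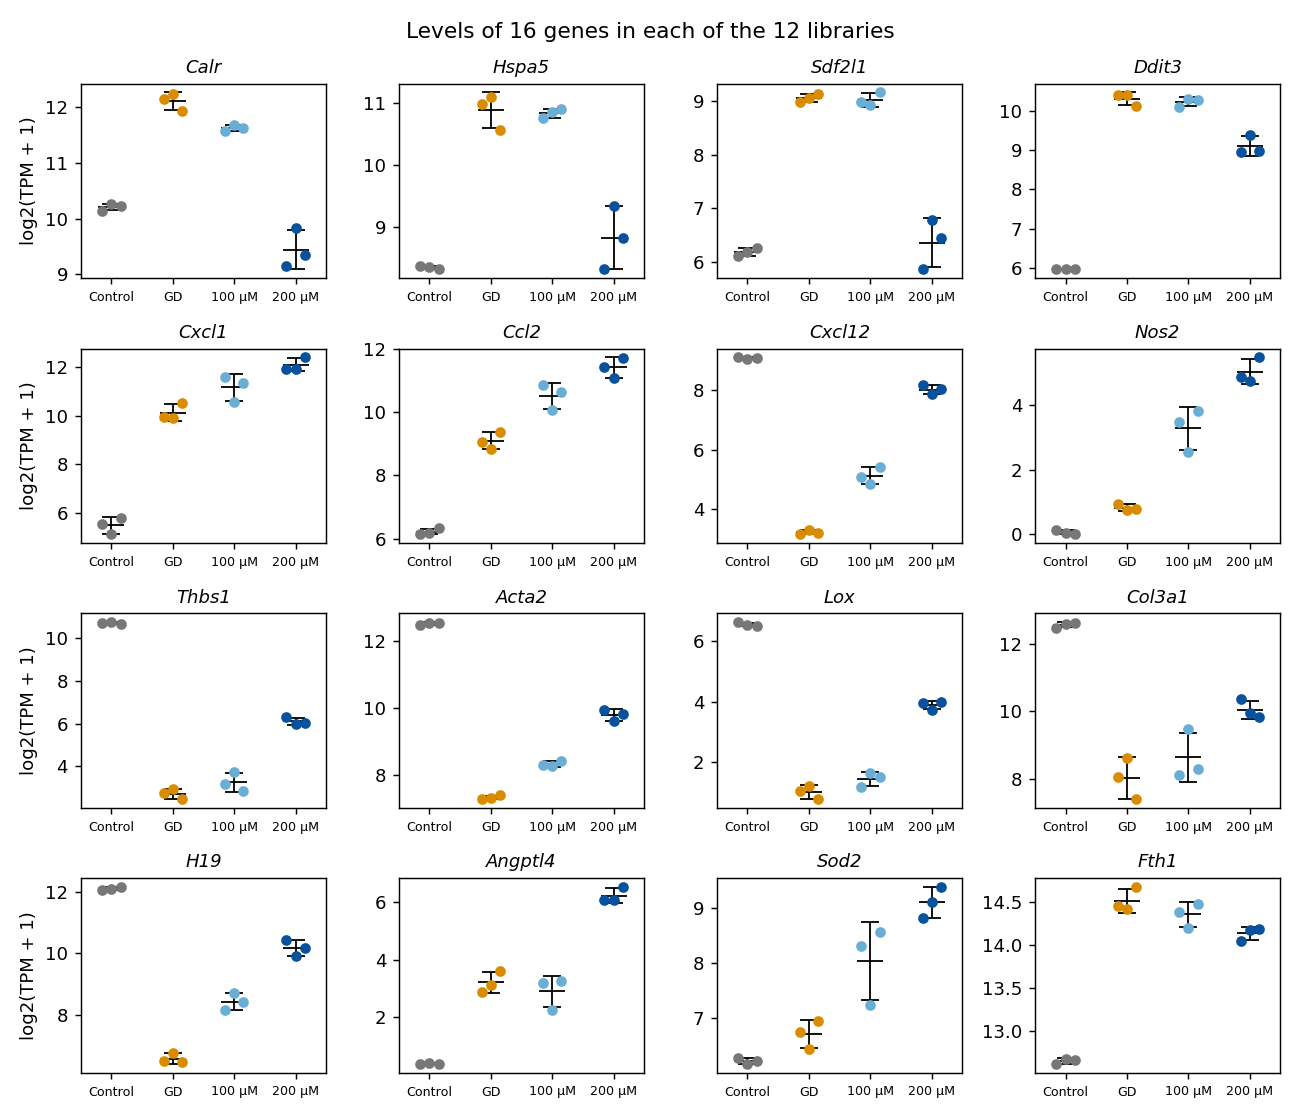
Points are log2(TPM + 1) in each of the 12 libraries, with bars for the mean and SD over 3 libraries of control, GD, 100 µM and 200 µM. Calr, Hspa5 and Sdf2l1 with 200 µM lie below every GD library, the chemokine genes and Nos2 lie above, and Fth1 differs least from GD (-0.38 on the log2 scale).

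Cytoskeletal and YAP-type genes rose together. Of 32 contractile and YAP-type targets 27 rose and none fell, with a median of 1.14 (26 and 2 after median-of-ratios scaling, 27 risen without GD replicate 3, and 1 fallen without GD replicate 1 or 3 or without 200 µM replicate 1), and Edn1 was tested only through the libraries with 200 µM. Edn1 is among the 27, and its rise is no support. Thbs1, which encodes the matrix protein thrombospondin 1, was at 5.64, 6.53 and 4.48 TPM in GD and 77.4, 63 and 64.2 TPM with 200 µM (log2 fold change 3.41, SE 0.18, adjusted p = 4.06e-08). Ctgf, a YAP target whose product binds the matrix, was at 9.88, 11.2 and 7.21 TPM in GD and 98.5, 135 and 90.6 TPM with 200 µM (log2 fold change 3.39, SE 0.23, adjusted p = 2.64e-07). Both stayed below control, where Thbs1 was at 1669.7 ± 56 and Ctgf at 588 ± 3.67 TPM. Cyr61, a relative of Ctgf (from 5.33 ± 1.24 to 49.2 ± 2.94 TPM), and the YAP target Ankrd1 (from 9.74 ± 1.71 to 61.1 ± 33.5 TPM, 2.41) rose. Acta2, smooth-muscle actin, was at 155, 156 and 165 TPM in GD and 986, 781 and 910.1 TPM with 200 µM (log2 fold change 2.48, SE 0.08, adjusted p = 4.79e-10). Its 3 libraries with 200 µM lay between GD and the control mean of 5946 ± 166 TPM.

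The smooth-muscle genes Tagln (from 112 ± 9.21 to 418 ± 60.7 TPM, 1.89) and Myl9 (2.00), the tropomyosin genes Tpm1 (1.27) and Tpm2 (0.94) and Srf itself (from 7.28 ± 1 to 17.5 ± 1.63 TPM, 1.16) rose. Tgfb1 (-0.29), Tgfb2 (0.53) and Tgfb3 (-0.46), the growth factor ligands of the list, did not pass (Tgfb1 and Tgfb3 were called lower after that scaling, Tgfb1 also without GD replicate 1 at -0.36, and Tgfb3 without GD replicate 3 at -0.64 or 200 µM replicate 1 at -0.63). Actn4 (0.27) and Axl (0.25, listed at 2 loci) did not pass either, but were called higher without GD replicate 2 (0.39 and 0.36), and Axl also without 200 µM replicate 1 (0.37). The CArG box, the core of the SRF site, occurred in 3 of 24 promoters of this list (12.5%), those of Cnn2, Actg1 and Srf, and in 1.64% of all promoters. These 3 genes rose by 1.13, 0.41 (not called after that scaling) and 1.16.

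Extracellular matrix genes followed, with 37 of 49 risen and 1 fallen, a median of 0.87 (36 and 2 after median-of-ratios scaling) and 27 list members too low to test. Mmp9, counted among the 37, was tested only through the libraries with 200 µM, so its rise is no support. Its call ended without 200 µM replicate 3 (0.90). Col3a1, a fibrillar collagen gene, was at 262, 392 and 166 TPM in GD and 1311, 991 and 907 TPM with 200 µM (log2 fold change 2.03, SE 0.33, adjusted p = 0.000279). The GD libraries spread widely here, and none reached the libraries with 200 µM. Col1a1, another fibrillar collagen gene, rose from 575 ± 172 to 1410.3 ± 139 TPM (1.33), the basement membrane collagen gene Col4a1 from 12.4 ± 2.84 to 37.6 ± 3.32 TPM (1.55), and the fibronectin gene Fn1 from 629 ± 144 to 1527 ± 93.5 TPM (1.30). Lox, which encodes a collagen crosslinking oxidase, rose from 1.06 ± 0.316 to 14 ± 1.41 TPM (2.87), and the proteinase inhibitor gene Timp1 from 34 ± 2.17 to 83.5 ± 7.45 TPM (1.27). The gene that fell was P4ha1, a prolyl hydroxylase subunit that acts inside the ER (from 135 ± 24.2 to 93.5 ± 11.2 TPM, -0.52). Of 9 genes on the fibroblast list 4 were tested and rose, Col1a1, Pdgfrb (0.69), Thy1 (from 110.3 ± 15.2 to 189.7 ± 30.8 TPM, 0.77) and Lum (1.04), or all but Pdgfrb after that scaling. Pdgfrb was called without GD replicate 2, but lost its call without any 1 of the other 5 libraries (0.42 to 0.78). Of the 5 untested members, Pdgfra was at 0.72, 0.71 and 0.4 TPM in GD and 0.33, 0.31 and 0.34 TPM with 200 µM, all below GD, and the others stayed at or under 0.56 TPM.

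The share of skeletal muscle genes that rose was near that of all genes, 32%. Of 18 skeletal muscle genes 6 rose and none fell, among them the myogenic regulator Myod1 (from 2.41 ± 0.867 to 6.26 ± 2.77 TPM, 1.05), and 4 did so after median-of-ratios scaling and 3 without 200 µM replicate 1 or without 200 µM replicate 2. Myod1 lost its call without either of those 2 (0.79 and 0.98) and without GD replicate 3 (0.81). Myog, at 0.12, 0.17 and 0.04 TPM in GD and 0.72, 0.33 and 0.12 TPM with 200 µM, was not called (0.30, adjusted p = 0.091), but was with a pseudocount of 0.1 (1.07) and without 200 µM replicate 3 (0.45). Of 11 tested cardiac genes 5 rose and 1 fell (3 and 1 after that scaling, and 3 risen without GD replicate 1 or without 200 µM replicate 1). The risen ones include the connexin genes Gja5 (from 2.34 ± 0.443 to 20.4 ± 3.24 TPM, 2.68) and Gja1 (from 8.55 ± 2.03 to 44.7 ± 1.15 TPM, 2.28). Tnnt2, cardiac troponin T, was at 21.7, 26.3 and 21.3 TPM in GD and 63.9, 29.5 and 34.1 TPM with 200 µM (log2 fold change 0.78, SE 0.24, adjusted p = 0.0203), and 200 µM replicate 1 was far above the others. It was not called after that scaling (adjusted p = 0.0628), without that library (0.45), or without GD replicate 1 or 3 (0.74 and 0.73). Atp2a2, the calcium pump of the ER and sarcoplasmic reticulum, fell by 0.38 with groups that overlapped, a call that ended with no filter, without the limma trend, with only the groups compared, and without any 1 of GD replicates 1 and 2 and 200 µM replicates 1 and 3 (-0.35 to -0.23). Flt1, the tested gene of the endothelial list, rose by 0.80, and Cd68 by 0.63, at 0.45 ± 0.233 TPM in GD. Cd68 passed the filter only through the libraries with 200 µM, where it is high, so its rise is no support. The call of Flt1 ended without 200 µM replicate 2 (0.64), and that of Cd68 without GD replicate 1 (0.50) or 200 µM replicate 3 (0.41).

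**Figure D3:**
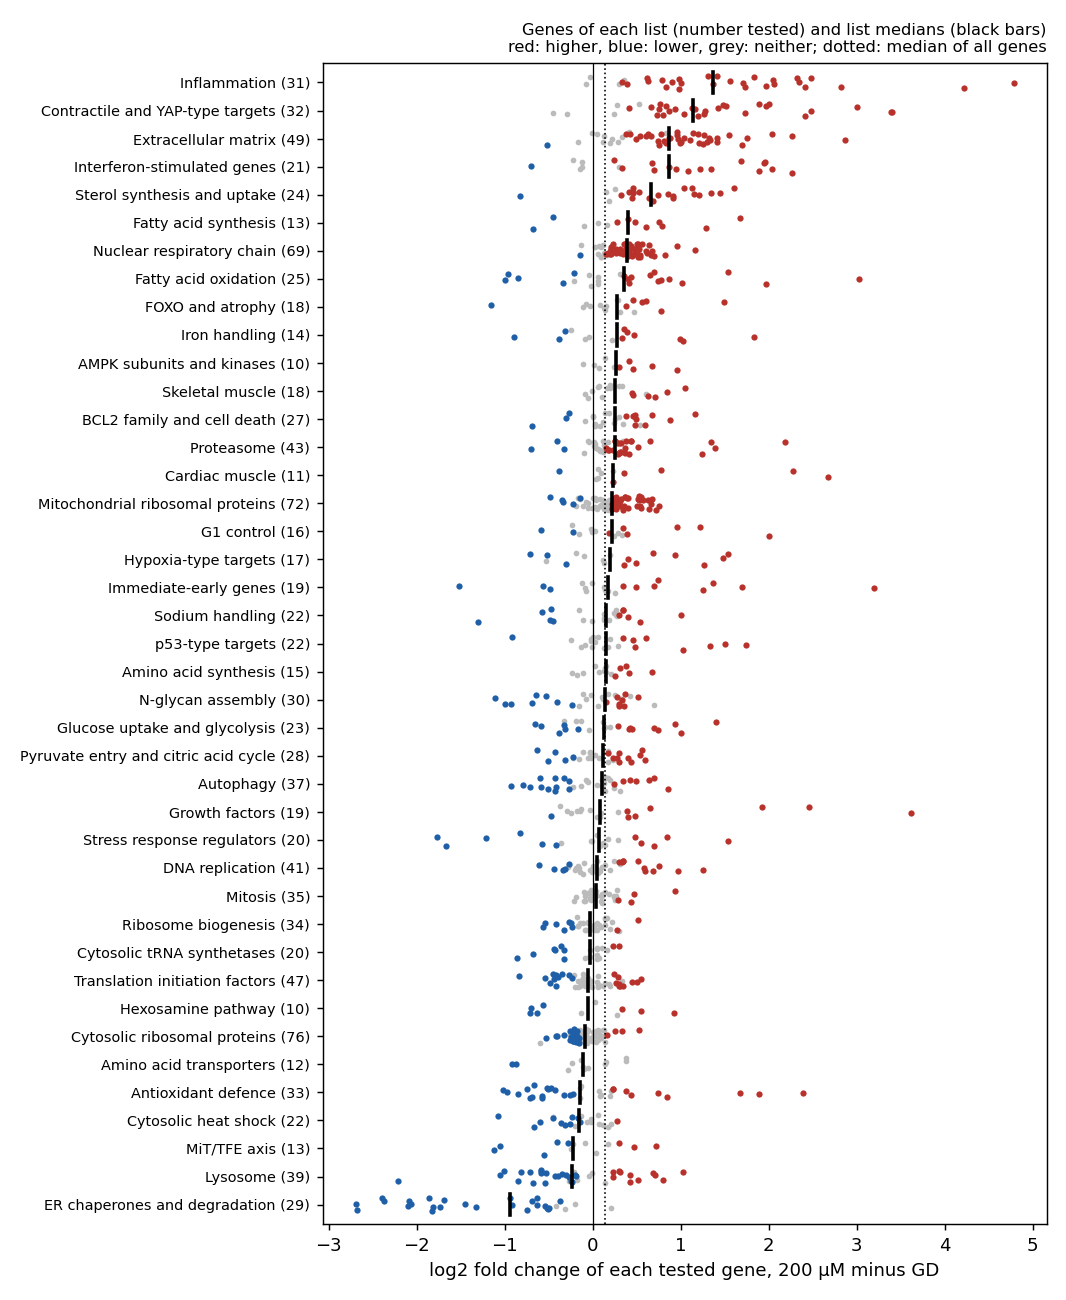
Each point is the log2 fold change of 1 tested gene, 200 µM minus GD, for lists with at least 10 tested genes, and the black bars are list medians. ER chaperones lie lowest and inflammation highest, and the dotted line is the median of all genes (0.14, or -0.01 after median-of-ratios scaling, which turns the sign of list medians just above 0).

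Lipid genes rose in their majority. Of 24 genes of sterol synthesis and uptake 20 rose and 1 fell, with a median of 0.66 (17 and 1 after median-of-ratios scaling). Idi1, which encodes an isomerase of the early pathway, rose from 1.77 ± 0.352 to 5.5 ± 1.69 TPM (1.21), and Nsdhl, which acts on late sterol intermediates, from 10.1 ± 1.44 to 20 ± 3.34 TPM (0.91). Insig1, which encodes a protein of the ER that holds back the pathway, fell from 80 ± 8.45 to 44.6 ± 1.71 TPM (-0.83). The sterol element letters TCACNCCAC occurred in 0 of 17 promoters of this list and in 1.13% of all, which says only that these letters are not in those windows. Of 13 fatty acid synthesis genes 8 rose and 2 fell (6 and 2 after that scaling), with Acss2, which makes acetyl-CoA from acetate (1.67), and the desaturase gene Fads2 (1.29) up and the regulator gene Srebf1 down (-0.68).

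Fatty acid oxidation genes divided, with 13 of 25 risen and 5 fallen (12 and 8 after median-of-ratios scaling). Angptl4, which encodes an inhibitor of lipoprotein lipase, was at 6.36, 7.75 and 11.2 TPM in GD and 66.8, 66.7 and 90.9 TPM with 200 µM (log2 fold change 3.02, SE 0.24, adjusted p = 1.08e-06). All of its libraries with 200 µM were above all GD libraries. Acadvl, which starts the oxidation of very long chains, rose from 2.01 ± 0.294 to 10.8 ± 0.99 TPM (1.97), and Hadh by 1.54, while Acadl (from 109 ± 10.4 to 53.7 ± 0.91 TPM) and Cpt1c (-0.85) fell. Cpt1a, the gateway enzyme of the mitochondrion, rose by 0.65.

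Nuclear genes of the respiratory chain rose in small steps, 57 of 69 with 1 fallen and a median of 0.39, but with median-of-ratios scaling (median 0.19) 24 were higher and 1 lower. The complex III hinge protein gene Uqcrh (from 114 ± 10.9 to 258 ± 42.7 TPM, 1.17) and the complex I gene Ndufa3 (0.96) were among those that rose, and Uqcrq fell by 0.15, a call that ended without the limma trend, with only the groups compared, without GD replicate 1 or 2 or without 200 µM replicate 1 or 3 (-0.14 to -0.13). Of 72 mitochondrial ribosomal protein genes 36 rose and 5 fell (14 and 11 after that scaling, and 3 fallen without GD replicate 1 or without 200 µM replicate 3). In glycolysis 9 of 23 rose and 6 fell, with 5 and 10 after that scaling. Ldha, lactate dehydrogenase A, rose from 111 ± 6.94 to 223 ± 17.2 TPM (1.00) and the phosphofructokinase gene Pfkm by 1.40, while the pyruvate kinase gene Pkm (-0.66) and the enolase gene Eno1 (-0.32) fell. Of 28 genes of pyruvate entry and the citric acid cycle 10 rose and 5 fell, with 5 and 11 after that scaling, which turned its direction too. Mpc1, a subunit of the mitochondrial pyruvate carrier, fell by 0.51, and the kinase gene Pdk1 rose by 0.59.

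The ferritin heavy chain gene Fth1, whose product stores iron, was at 22389, 21901 and 26123 TPM in GD and 16943, 18439.8 and 18613 TPM with 200 µM (log2 fold change -0.38, SE 0.08, adjusted p = 0.00178). The 3 libraries with 200 µM lay below the GD libraries and far above the control mean of 6432 ± 137 TPM. Ftl1, the other ferritin gene, was at 23202.5 ± 1608 TPM in GD and 21851.9 ± 750 TPM with 200 µM. Its groups overlapped and it was not called (-0.08, adjusted p = 0.586). Of 14 iron genes 7 rose and 3 fell (4 and 4 after median-of-ratios scaling), with the ferroxidase gene Cp at 1.83 and the heme oxygenase gene Hmox1 at -0.89. Of 76 cytosolic ribosomal protein genes 20 fell and 4 rose around a median of -0.08 (26 and none after that scaling, and 13 fallen without GD replicate 1). Rps3a fell from 5034 ± 353 to 3781 ± 233 TPM (-0.41), and Rps21 rose by 0.33 (0.13 after that scaling, not called). Of 34 ribosome biogenesis genes 7 fell and 2 rose (19 and 1 after that scaling), and of 47 translation initiation factor genes 11 fell and 10 rose (24 and 2 after that scaling, 17 fallen without GD replicate 3).

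Antioxidant genes fell more often than all genes. Of 33 tested, 16 fell and 9 rose (18 and 5 after median-of-ratios scaling), against 11.4% fallen and 32% risen over all genes. Those that fell include Gclc, which makes glutathione precursor (from 48.1 ± 11 to 23.5 ± 2.41 TPM, -0.98), Txnrd1 (-0.69), Srxn1 (-0.67) and Cat, catalase (-0.72). Those that rose include Sod2, the extracellular dismutase gene Sod3 (1.89), Ephx1 (1.68) and the glutathione peroxidase gene Gpx1 (0.85). Nfe2l2, which encodes NRF2, was not called (0.20, adjusted p = 0.0595), but was called higher without GD replicate 1 (0.25) or GD replicate 2 (0.26). Of 22 cytosolic heat shock genes 10 fell and 1 rose (12 and none after that scaling, and 6 fallen without GD replicate 1 or without 200 µM replicate 2), with Hspa4l at -1.08 and Hspa4 at -0.66.

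Of 39 lysosome genes 21 fell and 11 rose around a median of -0.24 (26 and 7 after median-of-ratios scaling). Beside Mcoln3, several proton pump subunit genes fell, Atp6v1h (from 149 ± 20.9 to 73.1 ± 4.24 TPM), Atp6v1c1 (-0.85) and Atp6v1b2 (-0.82), as did the membrane protein gene Lamp1 (-0.59). The enzyme genes Gusb (1.03) and Sgsh (0.80) rose. In the MiT/TFE axis, whose factors drive lysosomal genes, 5 of 13 fell and 3 rose (7 and 2 after that scaling). The folliculin partner Fnip2 (-1.12) and the Rag GTPase gene Rragd (-1.05) fell, and Mitf (0.04) was not called. Neither was Tfeb (-0.22, adjusted p = 0.0653), which was called lower after that scaling (-0.41, adjusted p = 0.00534).

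Of 37 autophagy genes 12 fell and 7 rose, with 16 and 5 after median-of-ratios scaling. Cargo receptors and ATG8-type proteins were among those that fell. Sqstm1, which encodes the receptor p62, was at 1984, 2147 and 1953 TPM in GD and 1225, 1516 and 1279 TPM with 200 µM (log2 fold change -0.60, SE 0.07, adjusted p = 3.02e-05). Map1lc3b, which encodes LC3B, was at 457, 459.6 and 423 TPM in GD and 335, 344 and 317 TPM with 200 µM (log2 fold change -0.43, SE 0.06, adjusted p = 7.33e-05). In both the groups were separate. Gabarapl1 (-0.93) and Nbr1 (-0.79) fell, and Wipi1 (0.86) and Map1lc3a (0.69) rose. Becn1, which encodes a part of the lipid kinase complex that starts autophagosomes, was at 66.8, 70.8 and 57.8 TPM in GD and 58.8, 63 and 55.2 TPM with 200 µM, and the groups overlapped (-0.14, adjusted p = 0.214). After that scaling it was called lower (-0.33, adjusted p = 0.000296), as it was without GD replicate 3 (-0.22).

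Slc5a2, the gene of the drug's target SGLT2, was low, at 1.23, 1.04 and 0.79 TPM in GD and 2.06, 1.03 and 0.91 TPM with 200 µM, and the groups overlapped (log2 fold change 0.18, SE 0.16, adjusted p = 0.394). Its relative Slc5a1 never passed 0.06 TPM in the 6 libraries and was not tested. Of 22 sodium-handling genes 6 rose and 5 fell (3 and 6 after median-of-ratios scaling, and 3 risen without GD replicate 3 or without 200 µM replicate 2), and the sodium-phosphate cotransporter gene Slc17a1 fell from 162 ± 16.8 to 68 ± 23.5 TPM (-1.30), a call that ended without GD replicate 1 or 3 or without 200 µM replicate 1 (-1.30 to -0.98). Over all genes 32% rose and 11.4% fell, so sodium-handling genes rose no more often than all genes but fell more often. After that scaling 24.4% of all genes were lower, near the 6 of 22 here. Of 10 genes of AMPK, the energy-sensing kinase, and its partners 5 rose and none fell (4 and 1 after that scaling), with the kinase gene Camkk2 at 0.96. Txnip, a glucose-induced gene, was at 0.23, 0.02 and 0.22 TPM in GD and 0.65, 0.35 and 0.39 TPM with 200 µM (log2 fold change 0.34, SE 0.12, adjusted p = 0.0301), far below the control mean of 58.4 ± 3.21 TPM. Its call ended without GD replicate 2 or 200 µM replicate 1 (0.25 in both). With it, 4 glucose-sensor genes were tested, of which Mlx fell (-0.36), so that 1 rose and 1 fell (1 and 2 after that scaling). The glucose transporter gene Slc2a1 was at 13.2, 14.8 and 14.1 TPM in GD and 11.8, 20.5 and 17.5 TPM with 200 µM, and the groups overlapped (adjusted p = 0.412).

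Mitosis genes were mostly not called. Many had GD means under 1 TPM, such as Top2a (0.427 ± 0.0351 TPM) and Mki67 (0.777 ± 0.241 TPM), where changes come out too small on this scale. Over all genes 32% rose and 11.4% fell. Of 35 mitosis genes 4 rose and none fell (1 and 2 after median-of-ratios scaling, and 2 risen without GD replicate 1, 200 µM replicate 1 or 200 µM replicate 2), with Cdk1 at 0.94. Of 41 DNA replication genes 11 rose and 5 fell, near the shares of all genes. After that scaling 7 rose and 12 fell, beside 22.4% and 24.4% of all genes. The number risen was 7 without 200 µM replicate 2, and the number fallen 2 or 3 without GD replicate 1 or 2 or without 200 µM replicate 1 or 3. Rrm2, a ribonucleotide reductase subunit, rose by 0.97. In G1 control 6 of 16 rose and 2 fell (3 and 3 after that scaling), and all D cyclin genes rose. Ccnd1, which encodes the D cyclin that links growth signals to the cell cycle, was at 10, 11.3 and 6.86 TPM in GD and 46.2, 38.5 and 36 TPM with 200 µM (log2 fold change 2.00, SE 0.17, adjusted p = 1.78e-06). Ccnd3 rose by 1.22 and Ccnd2 by 0.96.

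Of 22 p53-type targets 8 rose and 1 fell (7 and 4 after median-of-ratios scaling), with Gadd45b (1.75) and Gadd45g (1.51) up and Gadd45a down (from 976 ± 105 to 517 ± 64.5 TPM, -0.92). Of 27 genes of the BCL2 family and cell death 10 rose and 3 fell (5 and 3 after that scaling, and 6 risen without GD replicate 3 or without 200 µM replicate 1). The death-promoting gene Bcl2l11 rose from 4.72 ± 0.751 to 11.8 ± 1.04 TPM (1.16), Bid by 0.88 and the survival gene Mcl1 by 0.49, and Ripk3, a kinase gene of necroptosis, fell by 0.69. Fallen genes of this list numbered 1 without GD replicate 1 or 2 or without 200 µM replicate 1 or 3. Among 19 immediate-early genes 8 rose and 3 fell (7 and 5 after that scaling). Egr1, an SRF-driven factor gene, was at 0.59, 0.99 and 0.82 TPM in GD and 18.9, 11.7 and 16.4 TPM with 200 µM (log2 fold change 3.19, SE 0.16, adjusted p = 3.25e-08). Fos rose by 1.25, and Nr4a1 (-1.52) and Myc (-0.56) fell. Of 19 growth factor genes 7 rose and 1 fell (6 and 3 after that scaling), among them H19 and Igfbp5, a binding protein gene of the IGF system (1.93). Of 18 FOXO and atrophy genes 6 rose and 1, the muscle ubiquitin ligase gene Trim63 (-1.16), fell (6 and 1 after that scaling, and 2 fallen without GD replicate 3), and of 17 hypoxia-type targets 8 rose and 3 fell (5 and 5 after that scaling, and 5 fallen without GD replicate 3). Over all genes 32% rose and 11.4% fell. The numbers risen of the p53-type, BCL2, growth factor and FOXO lists are near that share.

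The test of 200 against 100 µM asked where the higher dose differed from the lower one. In that comparison 3167 genes (25.7%) were higher and 992 (8.06%) lower at 200 µM, with a median of 0.12 (2308 and 2265 after median-of-ratios scaling). For 100 µM against GD, 925 genes (7.51%) were higher and 672 (5.46%) lower, with a median of 0.02 (957 and 1338 after that scaling). The lower genes at 100 µM numbered 371 without GD replicate 2, 389 without GD replicate 1, 384 without 100 µM replicate 1 and 1615 without GD replicate 3, and the higher genes 536 without 100 µM replicate 3. With only the groups compared, 422 genes were higher and 285 lower at 100 µM than in GD. As both drug comparisons use the same GD libraries, their values are only set side by side. The list counts that follow for the doses are those without that scaling and with all groups in the model, and may shift as the counts of all genes did. For ER chaperones 26 of 29 were lower at 200 than at 100 µM, and against GD 5 were lower and 1 higher at 100 µM, beside 25 lower and none higher at 200 µM. Hspa5 was at 1724, 1849 and 1913 TPM with 100 µM, and the higher dose lay lower by a log2 difference of -2.02 (SE 0.19, adjusted p = 9.29e-06). Sdf2l1 was at 503, 482 and 569.7 TPM with 100 µM (difference between doses -2.65, adjusted p = 3.49e-07), and Ddit3 at 1093, 1262 and 1237 TPM (-1.13, adjusted p = 9.42e-06). None of these 3 was called at 100 µM against GD (log2 fold changes -0.05, -0.04 and -0.08).

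For contractile and YAP-type targets 27 of 32 were higher at 200 than at 100 µM, and 4 were higher at 100 µM than in GD. For matrix genes these counts were 34 and 5 of 49. Cyr61 was at 3.34, 5.89 and 6.04 TPM with 100 µM (difference between doses 3.07, adjusted p = 1.98e-07) and Angptl4 at 8.02, 3.77 and 8.47 TPM (3.34, adjusted p = 1.11e-06), and neither was called at 100 µM against GD (-0.07 and -0.32). In the inflammation list 20 of 31 were higher at 100 µM than in GD, and 22 were higher and 1 lower at 200 than at 100 µM. Cxcl12 was at 33.3, 28.2 and 42.2 TPM with 100 µM (1.90 against GD, and 2.89 between doses, adjusted p = 4.5e-08), and Nos2 at 10, 4.84 and 13.1 TPM (2.46 and 1.76, adjusted p = 0.000282). Csf2, a myeloid growth factor gene, was the gene lower at the higher dose (-1.35, adjusted p = 0.00198). Against GD, Csf2 was called higher at 200 µM, but that call ended after median-of-ratios scaling (0.65) and with no filter (0.78). It also ended without GD replicate 1 or 2 or without 200 µM replicate 2 or 3 (0.52 to 0.75). In the respiratory chain list 37 of 69 were higher at 100 µM than in GD, and 31 were higher and 6 lower at 200 than at 100 µM. Cytosolic ribosomal protein genes had 25 of 76 lower and 2 higher at 200 than at 100 µM, and none called at 100 µM against GD.

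**Figure D4:**
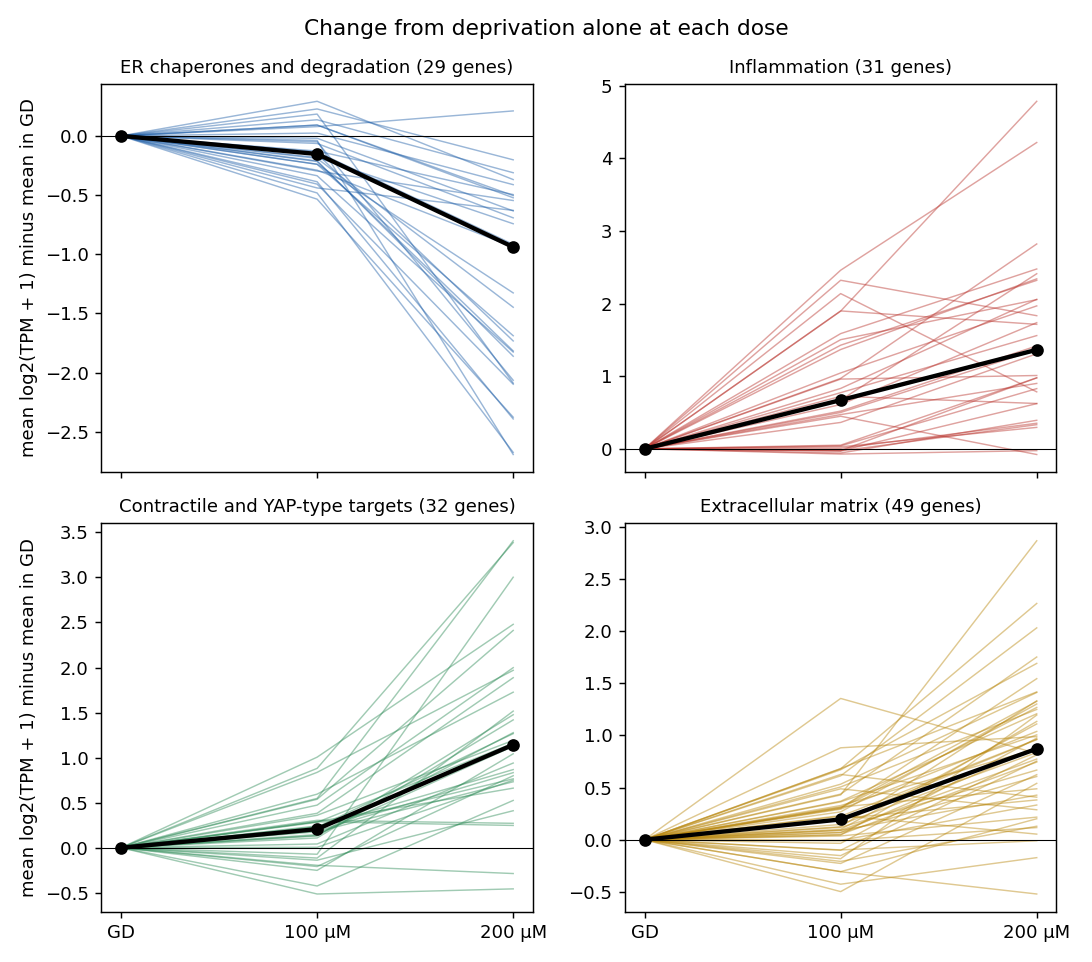
Lines are single genes, with the mean log2(TPM + 1) of 3 libraries minus that in GD on the y axis and GD, 100 µM and 200 µM on the x axis, and the black line is the list median. The median of ER chaperones goes from -0.15 at 100 µM to -0.94 at 200 µM, that of inflammation from 0.67 to 1.36, that of contractile and YAP-type targets from 0.21 to 1.14 and that of matrix genes from 0.20 to 0.87, and none of the 200 µM medians changes sign after median-of-ratios scaling.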

How the data were processed

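RNA-seq of 12 libraries of H9c2(2-1) cells was used, 3 in each of 4 groups, with the 6 libraries of GD and 200 µM at the centre. The deposited table holds TPM per gene and library, which the authors made with HISAT2 and StringTie per the submitters' processing notes. Their versions, the build, the annotation and any strand setting are not stated in the material at hand. Column totals of 946400.5 to 981389.8 fit TPM, and no depth can be read from them. Mitochondrial genome transcripts were not analysed here.

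Genes that reached 1 TPM in 3 or more libraries were tested on log2(TPM + 1) with limma 3.58.1 (trend, R 4.3.3). All 12 libraries entered 1 model with a mean per group. P-values were two-sided and adjusted by Benjamini-Hochberg over all genes tested, with a threshold of 0.05. The method was also run on simulated data with far fewer changed genes and as many up as down. That setting differs from these data, so the run is no support for the calls made here. The model had no term for the replicate number. Shares of TPM were compared with an exact permutation test.

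The members, the 45 gene lists and the motifs were chosen with earlier results of these data known. The letters of all motifs but TGATGNAA were chosen after the values of this comparison were seen. Genes were named by a rule: among called genes, the 15 largest rises and 15 largest falls on the log2 scale, for genes whose groups did not overlap, with a mean of at least 5 TPM in the higher group; the 10 largest TPM gains and losses; up to 4 members of each list with the smallest p; and a fixed set (among them Slc5a1, Slc5a2, Becn1, Sqstm1, Map1lc3b, Txnip, Ddit3, Atf4, Slc2a1, Thbs1, Fth1). Some of them are not reported here, and further list members are examples chosen after their values were seen. Promoters are those of RefSeq (GRCr8), matched by symbol. Alternatives were median-of-ratios scaling, ribosomal protein and ferritin genes left out, no filter, a minimum of 5 TPM, 0.1 in place of 1 as pseudocount, no trend in limma, only the groups compared, a replicate block and each library left out. A further alternative, that scaling without GD replicate 3, was chosen after seeing the data.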

Additional observations from a re-analysis of the deposited data

How the results depend on the processing

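Under median-of-ratios scaling 3003 genes were lower at 200 µM than in GD, 2265 lower at 200 than at 100 µM and 1338 lower at 100 µM than in GD, and the median of all genes became -0.012. With that scaling and without GD replicate 3, an alternative chosen after seeing the data, 2982 were lower at 200 µM and 1479 at 100 µM than in GD, and the median was -0.0118. It was 0.0981 with ribosomal protein and ferritin genes left out, and 0.0189 with no filter. Fitting only the groups compared left 422 genes higher and 285 lower at 100 µM than in GD. Leaving out 1 library at a time gave 3242 to 4212 genes higher and 1091 to 2037 lower at 200 µM than in GD, a median of 0.0704 to 0.191, 2325 to 2996 higher and 702 to 986 lower at 200 than at 100 µM, and 536 to 861 higher and 371 to 1615 lower at 100 µM than in GD. The difference in share of TPM ranged from -3.76 to -1.81. With a replicate block, 4038 genes were higher and 1436 lower at 200 µM than in GD, 3269 and 1032 at 200 than at 100 µM, and 927 and 697 at 100 µM than in GD. The labels state no link between same-numbered GD and 200 µM libraries (r of their deviations 0.0213, 0.0907 and 0.0595), and not every one correlated best with its own number. These values cannot decide whether the libraries were paired. The block ended no call of a named gene and added calls for Jdp2, Sel1l, Syvn1, Tgfb1 and Tgfb3. The calls of single genes in this paragraph are those of 200 µM against GD. Among genes named in the report, having no filter ended the calls of Atp2a2, Cd68, Csf2, Myod1, Pdgfrb, Slc17a1, Tnnt2 and Txnip. Without the limma trend those of Atp2a2, Pdgfrb and Uqcrq ended and Tfeb was called, and with only the groups compared those of Atp2a2 and Uqcrq ended and Tgfb1 was called, as it was with the minimum of 5 TPM. With ribosomal protein and ferritin genes left out, the calls of Nfkb2 and Pdgfrb ended, and Becn1, Sel1l, Ssr1, Syvn1, Tfeb, Tgfb1 and Tgfb3 were called lower. No gene named in the report changed the sign of a called value under these alternatives. Without read counts, the precision of low genes cannot be given.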
